A study of Mus musculus with 2 samples.

Results

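The genes described here encode the core scaffold of the presynaptic active zone: Bsn, Pclo, Rims1, Rims2, Unc13a, Unc13b, Unc13c, Erc1, Erc2 and Rimbp2. They were chosen by name, as 10 genes of the 55536 annotated genes in the tables, and the annotation gives them 87 of its 141862 transcripts. All were found in both libraries. The RNA came from tissue labelled as a layer of hippocampus, taken from male mice of the hybrid strain B6CASTF1/J aged 25 days. There was 1 group of 2 biological replicates, with no treatment or altered genotype named, so no condition was compared and no test was made. The labels give both replicates 1 donor identifier but separate tissue samples, which does not say if they were separate animals. Their spread may thus be partly or wholly technical. Reads from the B6 and CAST alleles were not separated.

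Active zone proteins hold synaptic vesicles at the sites where a nerve terminal releases transmitter. RIM proteins, from the Rims genes, bind Rab3 on vesicles, calcium channels and the Munc13 proteins. Munc13 proteins, from the Unc13 genes, open syntaxin so that vesicles become ready to fuse, a step called priming. RIM-binding protein, from Rimbp2, links RIMs to calcium channels, the ELKS proteins from Erc1 and Erc2 bind RIMs and the other scaffolds, and bassoon and piccolo, from Bsn and Pclo, are very large proteins that tether and organise the vesicle cluster. Hippocampal synapses are a standard preparation for the study of these proteins.

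Several of these genes make forms that differ at the start or the end of the protein, so the coding ends that separate forms or relate family members are shown first. Each sequence is the first 45 coding bases, or the last 45 with the 3 bases of the stop codon, of a transcript of GENCODE release M21 on mm10, written in the sense direction. Where a pair is compared, capitals mark bases that are the same at the same position in the other member of the pair. The coding starts of bassoon (chr9:108190214-108190258, minus strand) and piccolo (chr5:14515222-14515266, plus strand) had 29 of 45 bases in common, with the first 14 identical.
Bsn-201 start: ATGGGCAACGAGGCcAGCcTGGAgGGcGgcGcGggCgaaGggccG
Pclo-201 start: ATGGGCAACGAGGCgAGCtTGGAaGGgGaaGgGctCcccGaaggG

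Piccolo has alternative coding ends, at chr5:14793996-14794043 in the shorter form and at chr5:14858839-14858886 in the longer one. They are shown in lower case because nothing was compared between them.
Pclo-202 end, shorter form: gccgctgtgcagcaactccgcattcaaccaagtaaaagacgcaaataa
Pclo-201 end, longer form: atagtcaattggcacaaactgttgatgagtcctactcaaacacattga

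The upstream coding start of Unc13b (chr4, from 43059264, plus strand) shared 34 of 45 bases with that of Unc13a (chr8, from 71671647, minus strand). Both stretches cross an intron. Unc13b-216 starts further inside the gene, at chr4:43215703-43215747, and Unc13c-202 at chr9:73933523-73933567 on the minus strand.
Unc13a-201 start: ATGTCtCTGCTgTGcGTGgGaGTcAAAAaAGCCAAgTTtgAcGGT
Unc13b-201 start, upstream: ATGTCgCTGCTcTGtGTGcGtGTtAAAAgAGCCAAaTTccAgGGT
Unc13b-216 start, inner: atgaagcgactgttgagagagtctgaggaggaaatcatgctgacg
Unc13c-202 start: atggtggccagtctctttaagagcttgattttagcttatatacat

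The RIM genes have an upstream start for the long forms and an inner start for a short form that shares the coding end of the long ones. The long starts of Rims1 (chr1:22805680-22805724, minus strand) and Rims2 (chr15:39198363-39198407, plus strand) had 27 of 45 bases in common. The common coding ends (chr1:22288422-22288469 and chr15:39681717-39681764) had 35 of 48 in common.
Rims1-206 start, upstream: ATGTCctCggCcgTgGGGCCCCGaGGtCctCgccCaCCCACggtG
Rims2-201 start, upstream: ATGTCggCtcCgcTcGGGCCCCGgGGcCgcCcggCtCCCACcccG
Rims1-207 end: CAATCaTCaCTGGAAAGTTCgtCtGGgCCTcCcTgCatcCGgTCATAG
Rims2-204 end: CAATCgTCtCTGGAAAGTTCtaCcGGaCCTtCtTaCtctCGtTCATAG

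The last pair is the alternative end of the ELKS genes. In Erc1-206 (chr6, ending at 119618886, minus strand) and Erc2-205 (chr14, ending at 28317275, plus strand) 42 of the 48 bases were the same, the closest match among the pairs shown. Other transcripts of each gene end elsewhere, Erc1-201 at chr6:119575625-119575672 and Erc2-201 at chr14:28475729-28475776.
Erc1-206 end: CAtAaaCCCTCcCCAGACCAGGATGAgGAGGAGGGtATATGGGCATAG
Erc2-205 end: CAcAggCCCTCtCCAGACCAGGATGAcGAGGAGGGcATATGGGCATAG
Erc1-201 end: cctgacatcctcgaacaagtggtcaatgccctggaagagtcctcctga
Erc2-201 end: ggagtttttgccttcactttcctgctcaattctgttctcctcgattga

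The unit of level is TPM of the deposited gene table, an abundance divided by transcript length and scaled to the same total in each library, with the mean ± SD of 2 replicates. The depth over annotated genes was 30635891 expected counts (replicate 1) and 35713471 (replicate 2). Genes and transcripts were quantified with RSEM, per the file columns, and transcripts a second time with kallisto, which gives another division of shared reads. All 10 genes reached a mean TPM of 1, against 58.9% of protein-coding genes, and 9 of 10 reached 10 TPM, against 36.8%. Their median was 55.8 TPM, beside 3.42 over all 22028 protein-coding genes and 15.1 over the 12977 of these at 1 TPM or more. In bulk tissue, fewer cells of a type and less RNA per cell cannot be told apart.

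Per length, Unc13a and Rims1 stood highest, Erc2 and Bsn followed, Rimbp2 and Pclo came next, and Rims2, Erc1, Unc13b and Unc13c closed the order. Within the pairs Unc13a and Rims1, Erc2 and Bsn, and Rimbp2 and Pclo the replicates overlapped, so their ranges did not resolve the order inside each pair. Compared within each library, Rimbp2 was above Pclo in both (67.7 against 56.1 and 53.5 against 46.0 TPM). On this gene TPM, Erc2 was above Bsn in both, by little in replicate 2 (92.2 against 92.0 TPM). Unc13a and Rims1 changed order between the libraries. All other neighbours in the order had replicates that did not overlap. The widest gap was at the bottom, where Unc13b was 7.59 times Unc13c. The top of the order depended on the transcripts included and on the program. Over protein-coding transcripts alone, Rims1 led with 114 and 116 TPM. Bsn (103 and 92.0), Unc13a (95.6 and 89.8) and Erc2 (90.3 and 79.6) followed in both libraries. In the kallisto table Rims1 was above Unc13a in both (189.6 against 188.8 and 194.2 against 170.2 TPM). There Erc2 was above Bsn (178.7 against 137.3 and 147.3 against 122.4 TPM). The genes are long: they span 47.3 kb (Unc13a) to 856 kb (Erc2) of the genome, with a median of 313 kb against 17.3 kb over protein-coding genes. By count the order was different. The transcripts of Bsn and Pclo were also the longest, with mean effective lengths of 15010 and 16053 bases in replicate 1 against 3774 for Erc2. Bsn and Pclo together held 52.0% of the expected counts of the 10 genes but 23.5% of their TPM.

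**Figure D1:**
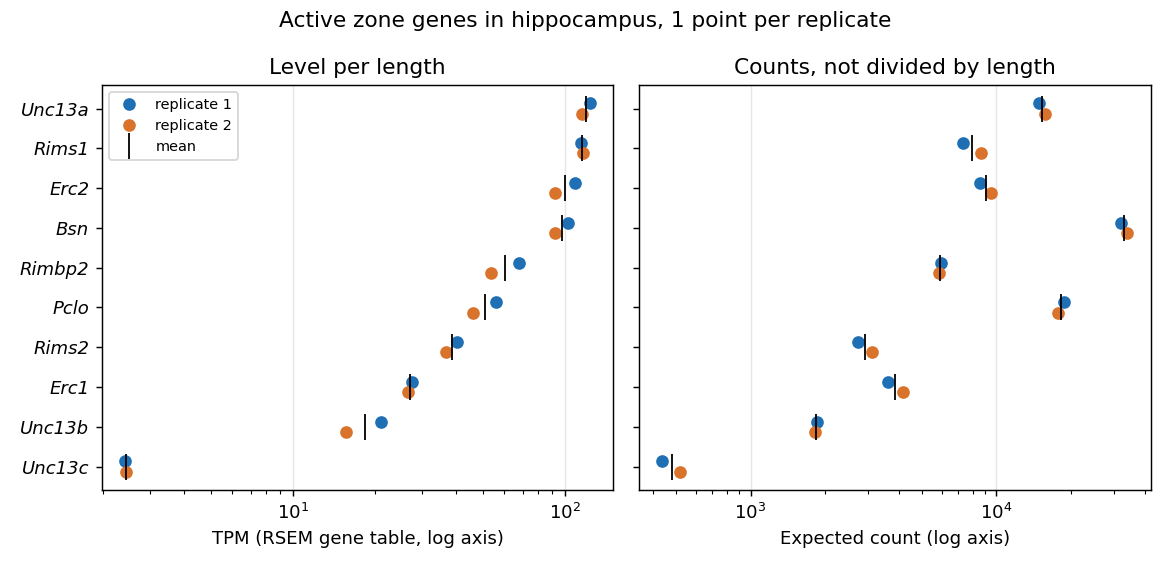
Level of each gene per replicate in TPM (left, log axis) and in expected counts, not divided by length (right, log axis), with 1 point per replicate and a black tick at the mean. Unc13a and Rims1 lead per length when all annotated transcripts are included, while Bsn and Pclo lead by count, and Unc13c lies at 2.42 and 2.44 TPM.

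Among the Munc13 genes, Unc13a was by far the highest. It encodes Munc13-1, the main priming factor of most glutamatergic synapses. Unc13a (ENSMUSG00000034799.16, chr8:71624417-71671757, minus strand) measured 124 TPM in replicate 1 and 116 in replicate 2 (119.7 ± 5.95, SD, n = 2), at percentile 94.7 of the protein-coding genes at 1 TPM or more. These values rest on 14839 and 15730 expected counts. Unc13b (ENSMUSG00000028456.18, chr4:43058953-43264871, plus strand) encodes Munc13-2 and measured 21.1 and 15.7 TPM (18.4 ± 3.82). Relative to its level, its replicates lay further apart than those of the other Munc13 genes, with an SD of 3.82 on 18.4 TPM. Unc13c (ENSMUSG00000062151.13, chr9:73479422-73968966, minus strand) encodes Munc13-3, which is best known from the cerebellum, and measured 2.42 and 2.44 TPM (2.43 ± 0.0141). It was the lowest of the 10 genes, at percentile 10.2, and still rested on 438 and 517 counts.

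Within a library, Unc13a stood 5.86 and 7.34 times above Unc13b per length (6.60 ± 1.04). The ratio to Unc13c was 51.2 and 47.3 (49.3 ± 2.73). Both ratios were above 5 in each replicate, so the order of the Munc13 genes did not turn on 1 library. The markers of cerebellar granule cells, which express Unc13c, were near 0: Gabra6 had 0.145 TPM, Cbln3 0.425 and Barhl1 0.03 as means of the replicates.

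The 2 complete coding forms of Unc13a together held 68.8% and 67.4% of its TPM. Unc13a-201, with 44 exons and 5136 coding bases, had 43.6 and 38.3 TPM, and Unc13a-208, with 45 exons and 5193 coding bases, had 41.8 and 39.6 TPM. They begin and end coding at the same bases, so the start sequence printed above is common to both. In this RSEM table the replicates of the forms overlapped, and which form led changed between replicates. In the kallisto table Unc13a-208 led in both, with 37.6% and 38.6% of the gene against 32.3% and 31.3% for Unc13a-201. The transcripts differ in total length, 10255 against 5654 bases, so by counts Unc13a-201 held 62.1% and 60.4% of the gene and Unc13a-208 32.5% and 34.2%.

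Unc13b is known to use alternative promoters, which give a widely expressed Munc13-2 whose start resembles Munc13-1 and a brain form with another start. Transcripts with the upstream start that matches Unc13a held 23.8% and 30.9% of the gene's TPM (27.3% ± 4.97). Unc13b-216, with the inner start, held 26.0% and 30.8% (28.4% ± 3.42). The values of the 2 starts overlapped in the RSEM table. In the kallisto table they did not: the upstream start held 26.0% and 26.1%, and Unc13b-216 held 32.7% and 31.0%. By counts the order was the other way, with 43.4% and 47.2% for the upstream start and 39.7% and 42.2% for Unc13b-216. Most of the upstream share of TPM in the RSEM table was Unc13b-201, with 4770 coding bases, at 19.3% and 25.8%. Unc13b-215 also uses this start and is annotated with 13170 coding bases in 41 exons, close in size to the large scaffolds. It had 0.88 and 0.60 TPM, which rest on 269 and 216 expected counts.

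Unc13c was read from 2 annotated forms with the same coding bases. Unc13c-202 held 100% and 98.0% of its TPM in the RSEM table and 68.1% and 67.9% in the kallisto table, with the remainder on Unc13c-201. The tables therefore differed more in this share than the replicates did.

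Of the RIM genes, Rims1 was about 3 times Rims2. Rims1 (ENSMUSG00000041670.16, chr1:22286251-22805994, minus strand) measured 114 and 116 TPM (115 ± 1.36), at percentile 94.3. Rims2 (ENSMUSG00000037386.16, chr15:39198261-39684372, plus strand) measured 40.1 and 36.7 TPM (38.4 ± 2.38), at percentile 78.0. The ratio of Rims1 to Rims2 was 2.85 and 3.17 (3.01 ± 0.222), and no replicate of Rims2 came near Rims1.

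By coding start alone, the forms of the 2 RIM genes were divided differently. RIM genes make long alpha forms from an upstream start and shorter forms from inner promoters, among them gamma forms that hold only the end of the protein. Transcripts with the upstream start held 78.0% and 75.6% of Rims1 TPM (76.8% ± 1.67). For Rims2 the upstream start held 25.6% and 27.8% (26.7% ± 1.53). As a share of its gene, the short form at the end showed the opposite order. Rims2-204, with 6 exons and 855 coding bases, held 26.0% and 29.5% of Rims2 TPM in the RSEM table, where its range overlapped that of the upstream start. In the kallisto table it held 22.6% and 24.5%, below the 27.1% and 27.3% of the upstream start. By counts it held 28.6% and 30.3% against 36.4% and 36.9%. Rims1-207, with 6 exons and 657 coding bases, held 7.0% and 8.7% of Rims1 TPM. In TPM the short forms lay closer, at 10.4 and 10.8 for Rims2-204 and 7.97 and 10.1 for Rims1-207.

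These shares depend on which models of the annotation are complete. The leading transcript of Rims1, Rims1-202 at 33.2% and 34.8%, has no annotated end of its coding sequence. Rims1-209, at 18.6% and 15.6%, keeps the upstream start but ends early, after 1164 coding bases. The 5 Rims1 transcripts that run from the upstream start to the common end held 26.2% and 25.2%. For Rims2 such transcripts held 25.6% and 27.8%, so on this measure the ranges of the genes overlapped. In the kallisto table the values were 25.6% and 23.7% for Rims1 against 27.1% and 27.3% for Rims2. By counts they were 51.4% and 49.7% against 36.4% and 36.9%. Rims1-208, at 15.0% and 15.7%, has no annotated coding start. In Rims2, incomplete models also took part: Rims2-211 held 19.7% and 18.2% and Rims2-206 held 18.2% and 19.2%. Rims2-206 has no annotated coding start either. Rims1-208 and Rims2-206 were thus left out of all shares by coding start, and which start they belong to is not known. Complete coding models together held 50.6% ± 1.58 of Rims1 and 54.5% ± 3.95 of Rims2.

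Rimbp2 (ENSMUSG00000029420.12, chr5:128757791-128953486, minus strand) had a level between those of the RIM genes. It measured 67.7 and 53.5 TPM (60.6 ± 10.1), at percentile 87.3, and replicate 1 was higher. Its coding transcripts share 1 coding start but begin at different promoters of the annotation. Those starting at the proximal site, Rimbp2-204 and Rimbp2-205, held 47.8% and 49.7% of the TPM. At the distal site, Rimbp2-207 held 24.6% and 28.5%. Rimbp2-206, a fragment of 620 bases, held 24.0% and 18.2% of TPM but 2.95% and 2.12% of the counts. TPM divides the count by this short length. Most of the complete forms end coding at a common stop (55.6% and 63.5% of the gene), and Rimbp2-205 ends at another (16.9% and 14.8%).

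Of the ELKS genes, Erc2, which encodes the protein also called CAST, exceeded Erc1. Erc2 (ENSMUSG00000040640.11, chr14:27622428-28478537, plus strand) measured 109 and 92.2 TPM (100.6 ± 11.96), at percentile 93.3. Erc1 (ENSMUSG00000030172.15, chr6:119570796-119848167, minus strand), whose product is expressed in many tissues, measured 27.5 and 26.6 TPM (27.0 ± 0.665), at percentile 68.6. Erc2 was 3.97 and 3.47 times Erc1 (3.72 ± 0.351). Counted over protein-coding transcripts alone the ratio was 6.43 and 5.71, because much of Erc1 falls in another annotated class. By counts it was 2.37 and 2.30.

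The ends of the ELKS proteins matter because the tail encoded by the matching sequences above is the one that binds the RIM PDZ domain, and in ELKS it marks the brain form. Erc1 transcripts with this end held 44.2% and 44.1% of Erc1 TPM (44.1% ± 0.0775), most of it Erc1-206 at 40.5% and 39.9%. Transcripts with the other end, Erc1-201 and Erc1-203 with 3360 coding bases each, held 50.04% and 51.4% (50.7% ± 0.999). The kallisto table gave 41.5% and 44.7% against 44.5% and 45.2%, and there the ranges overlapped. Erc1-206 held 34.9% and 34.0% in that table, and Erc1-211, with the same end, 6.5% and 8.3%. By counts the ends lay further apart: this end held 30.2% and 29.6% of Erc1, and the other end 66.8% and 68.2%. The annotation assigns Erc1-206 and all 4 other Erc1 transcripts with this end to nonsense-mediated decay, a class predicted from the position of the stop codon. The Erc2 transcripts with the matching end are annotated as protein-coding.

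In Erc2 the matching end held 53.3% and 48.5% of TPM (50.9% ± 3.36), and the downstream end of Erc2-201 held 18.8% and 27.4% (23.1% ± 6.07). In the kallisto table these were 60.5% and 62.8% against 13.9% and 17.9%. The matching end was thus the higher of the 2 in both replicates and both tables. Erc2 also has an inner coding start, used by Erc2-208 and Erc2-213, which held 26.7% and 26.4%. No single form dominated Erc2: Erc2-208 led in replicate 1 with 24.5% and Erc2-201 in replicate 2. Erc2-210, of 2874 bases, had 20.0 TPM in replicate 1 and 9.16 in replicate 2 of the RSEM table, the lowest ratio of the replicates among the protein-coding transcripts measured. Its share in the kallisto table was 29.2% and 24.5%.

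Bassoon and piccolo gave the most reads. Bsn (ENSMUSG00000032589.14, chr9:108096022-108190384, minus strand) measured 103 and 92 TPM (97.5 ± 7.76), at percentile 93.0. Pclo (ENSMUSG00000061601.15, chr5:14514918-14863459, plus strand) measured 56.1 and 46.0 TPM (51.1 ± 7.13), at percentile 84.4. The ratio of Bsn to Pclo was 1.84 and 2.00 (1.92 ± 0.115). Bsn had 32193 and 34012 expected counts, the rank of 62 among all protein-coding genes, and Pclo had 18761 and 17773, the rank of 165. By TPM their ranks were 909 and 2021. Both were lower per length in replicate 2, by less than the distance between the genes.

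Bsn was close to a gene of 1 form. Bsn-201, with 12 exons and 11826 coding bases in a transcript of 15938 bases, held 90.2% and 91.4% of its TPM. The rest was on Bsn-202, a model without an annotated coding start, at 9.82% and 8.64% in the RSEM table and 0.949% and 0.720% in the kallisto table. Pclo was divided between its 2 ends. Piccolo's longer form carries a second C2 domain, a calcium-binding module, that the shorter form lacks. The stop of the shorter form, shared by Pclo-202 and Pclo-204, held 74.1% and 73.0% of Pclo TPM (73.6% ± 0.773). The stop of the longer form, in Pclo-201 with 25 exons and 15204 coding bases, held 23.2% and 24.7% (23.9% ± 1.08). The kallisto table gave 72.9% and 72.0% against 18.8% and 20.5%. The shorter end held most of the gene in both replicates and both tables.

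**Figure D2:**
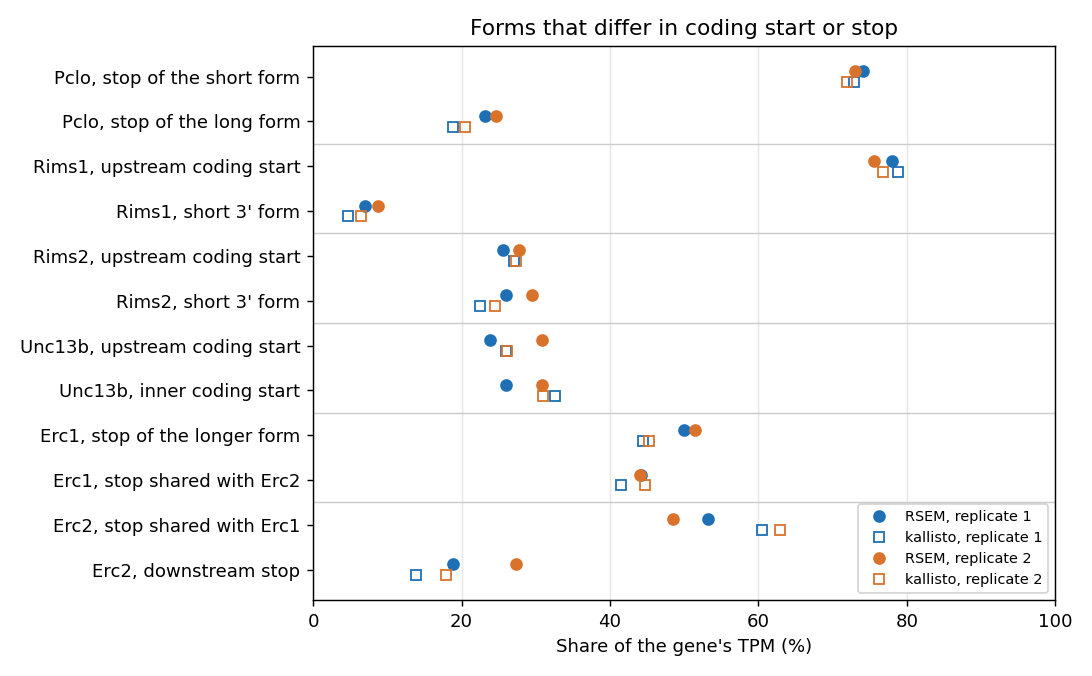
Share of each gene's TPM (percent) held by transcripts that differ in coding start or stop, with filled circles for the RSEM table, open squares for the kallisto table, and blue and orange for replicates 1 and 2. The short stop leads in Pclo in both tables, the upstream start holds over 75% in Rims1 and under 28% in Rims2, and the 2 stops of Erc1 lie close together in TPM. The Rims1 upstream share includes models that do not reach the common coding end. Rims1-208 and Rims2-206 have no annotated coding start and are in no share by start.

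Across the 10 genes, a leading transcript with at least 50% of the gene's TPM was found in 3, namely Bsn-201, Pclo-202 and Unc13c-202. Over all protein-coding genes with 2 or more transcripts this share was 69.1%. The leading transcript was the same in the RSEM and kallisto tables for 7 of 10 genes, against 76.1% over the same background, and differed for Unc13a, Erc2 and Rimbp2. Of the 87 transcripts, 48 held at least 5% of their gene in a replicate-averaged table and 18 were at 0 in both replicates of the RSEM table.

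Transcripts annotated as protein-coding held a median of 94.3% of the TPM of the 10 genes, beside a median of 86.9% over protein-coding genes with 2 or more transcripts. They held at least 90% in 6 of 10 genes, against 43.9% of those genes. In Bsn, Rims1 and Unc13c they held all of it. The 4 genes below 90% were Erc2, Unc13a, Unc13b and Erc1. In Erc1 the share was 51.1% and 52.5% (51.8% ± 0.997), the lowest of the 10, with the decay class described above making up most of the rest. In Unc13b retained-intron transcripts, which keep part of an intron and have no annotated coding sequence, held 42.7% of TPM in replicate 1 and 30.9% in replicate 2 in the RSEM table. In the kallisto table they held 32.4% and 33.9%, so replicate 2 was lower in 1 table only. Retained-intron transcripts of Unc13a held 22.9% and 22.3% of TPM but 4.43% and 4.17% of its counts, since they are short.

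**Figure D3:**
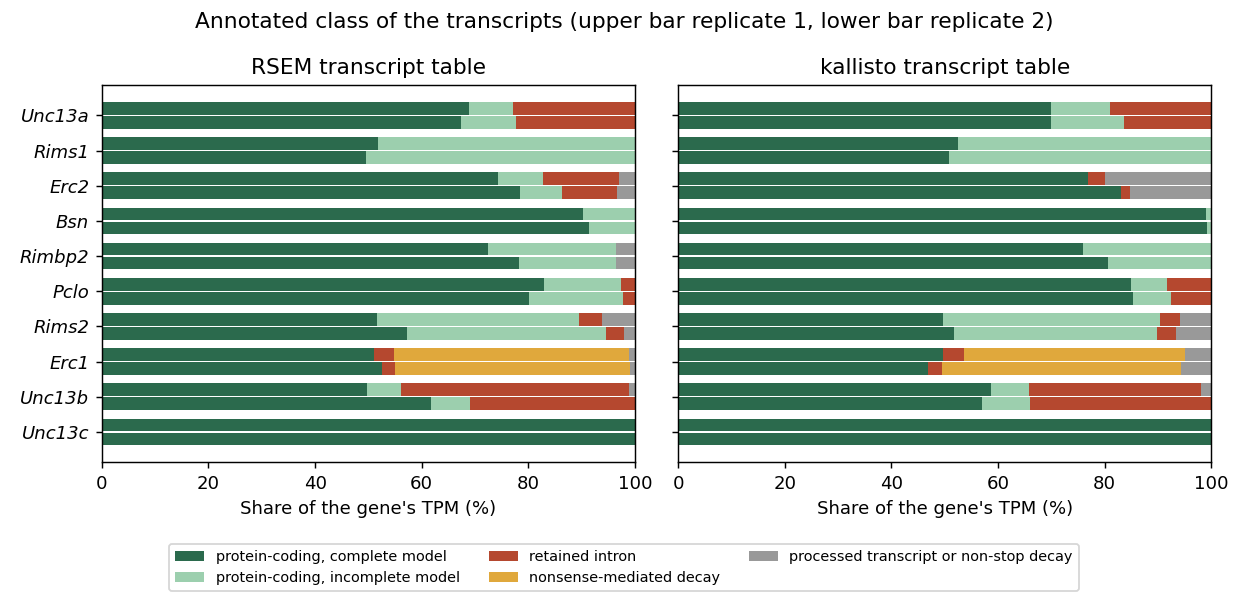
Share of each gene's TPM (percent) by annotated transcript class, in the RSEM (left) and kallisto (right) transcript tables, with the upper bar of each pair for replicate 1 and the lower for replicate 2. Erc1 stands apart by its decay-annotated share, and Unc13a and Unc13b by retained-intron transcripts.

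The replicates were compared by the log2 ratio of replicate 2 over replicate 1 in scaled expected counts. None of the 10 genes was over 2-fold apart, against 0.778% of all 12719 genes with a mean count of at least 100 and 0.0756% of the protein-coding ones. The ratios ran from -0.27 for Pclo to 0.06 for Rims1. Rimbp2 and Unc13b both had -0.22, and Bsn and Unc13a both had -0.11. Erc2 had -0.04, and Rims2, Erc1 and Unc13c lay between 0.01 and 0.05. So 6 of 10 genes were lower in replicate 2, against 37.8% of protein-coding genes, whose ratios had a median of 0.04 and an SD of 0.19. Scaling to the added ERCC spike-in RNAs shifted the median of protein-coding genes to -0.16, and all 10 genes were then lower in replicate 2. The signs of the small ratios are thus set by the scaling.

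For Unc13b the ratio depended on the quantity. It was -0.41 on the gene's TPM, -0.22 on counts and -0.12 on the TPM of its protein-coding transcripts, which was 11.9 and 10.9. In the RSEM table all of its measured retained-intron transcripts were lower in replicate 2. Over the 10 genes, 16 transcripts in 6 genes are annotated as retained introns, and 15 of them averaged 10 expected counts or more. Of these 15, 14 were lower in replicate 2, with a median log2 ratio of -0.61. The exception was Unc13a-206, at 0.15. The same was seen over the whole table: 80.1% of retained-intron transcripts of protein-coding genes were lower in replicate 2, with a median of -0.53, against 43.3% of protein-coding transcripts, with a median of 0.05. Of the coding transcripts of the 10 genes 23 of 41 were lower. By kallisto, 8 of 11 retained-intron transcripts were lower, against 75.6% of all. The retained-intron transcripts of the 10 genes thus moved as such transcripts did over the whole table, and the source of the shift was not tested.

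**Figure D4:**
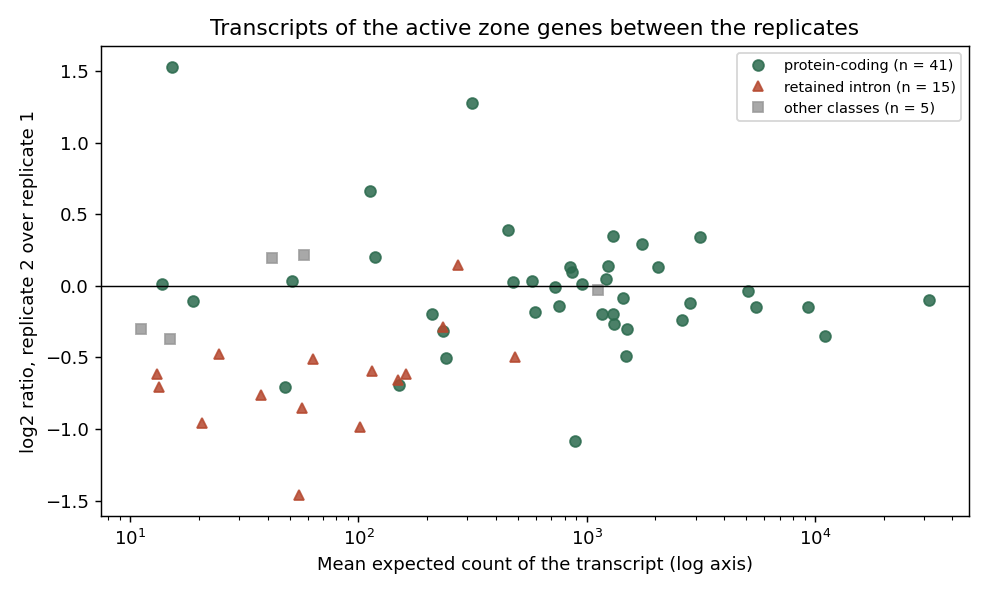
Transcripts of the 10 genes whose expected counts averaged 10 or more, with the mean count on a log axis against the log2 ratio of replicate 2 over replicate 1 (RSEM table). Of the 15 retained-intron transcripts (triangles) 14 lie below 0, while the 41 protein-coding transcripts (circles) lie on both sides.

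The gene levels were also read from the kallisto table, after each table was rescaled to the same sum over protein-coding genes. None of the 10 genes differed over 2-fold between the tables in both replicates, against 1.34% of 12977 genes. The kallisto level was above that of RSEM in both replicates for 1 of 10, Rims1, against 30.3% of genes. The log2 difference was -0.31 in both replicates for Bsn, -0.27 and -0.29 for Pclo and -0.36 and -0.08 for Unc13b, beside a median of -0.07 over the detected protein-coding genes. RSEM's own uncertainty of the gene count, its posterior SD, was 0 for all 10 genes and for 82.2% of protein-coding genes at 1 TPM or more. RSEM thus reported no doubt in assigning reads between these genes and others, family members included.

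The partners of the scaffold were read from 8 lists of 58 genes. Of these, 57 reached 1 TPM and 53 reached 10 TPM, against 58.9% and 36.8% of protein-coding genes, with a median of 50.6 TPM. The exception was Unc13d, a Munc13 relative of blood cell secretion, at 1.02 and 0.46 TPM. None of the 57 with a mean count of at least 100 was over 2-fold apart between the replicates, against 0.0756% of protein-coding genes at that count. Among the other relatives of the scaffold genes, Tspoap1, which encodes another RIM-binding protein, measured 69.6 and 55.7 TPM (62.6 ± 9.81). Its replicates overlapped those of Rimbp2, although it was slightly above Rimbp2 within each library. The short RIM genes were lower than Rims2, with Rims4 at 18.5 ± 0.523 and Rims3 at 10.8 ± 0.735 TPM. Baiap3 was at 2.81 and Rimbp3 at 1.70 TPM.

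Liprins, which recruit RIMs and ELKS to the synapse, were led by Ppfia3 at 57.2 ± 0.0919 and Ppfia2 at 55.7 ± 4.67 TPM. Ppfia4 had 32.2, Ppfia1 16.4, Ppfibp1 16.3 and Ppfibp2 2.52 TPM. Of the receptor phosphatases that bind liprins, Ptprs stood highest at 297 ± 27.1 TPM, followed by Ptprd at 77.4 and Ptprf at 36.9. Calcium channel pores that drive release were measured at levels near those of Bsn: Cacna1e, the R-type pore, at 98.3 and 77.0 TPM, and Cacna1a, the P/Q-type pore, at 98.8 and 76.0. Both were lower in replicate 2. The N-type pore Cacna1b was lower and closer between replicates, at 35.8 and 35.5 TPM.

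The vesicle protein Rab3a, to which RIMs bind, measured 336 and 365 TPM (350.3 ± 20.1), above each of the 10 scaffold genes. Its effector Rph3a had 98.4 and Rab3c had 83.9 TPM. The fusion machinery was the highest list, with a median of 250.7 TPM, led by Snap25 at 830.9, Nsf at 517 and Vamp2 at 442 TPM. Among other priming factors Cadps was highest at 97.0 ± 4.45 TPM. Stxbp5l had 58.5, Stxbp5 47.3, Doc2b 45.8, Cadps2 35.3 and Doc2a 7.18 TPM. Scaffold partners were led by Ctbp1 at 124.9, Rabac1 at 122 and Git1 at 117 TPM. Ctbp1 encodes a binding partner of bassoon and piccolo, and Rabac1 encodes the piccolo-binding protein PRA1.

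**Figure D5:**
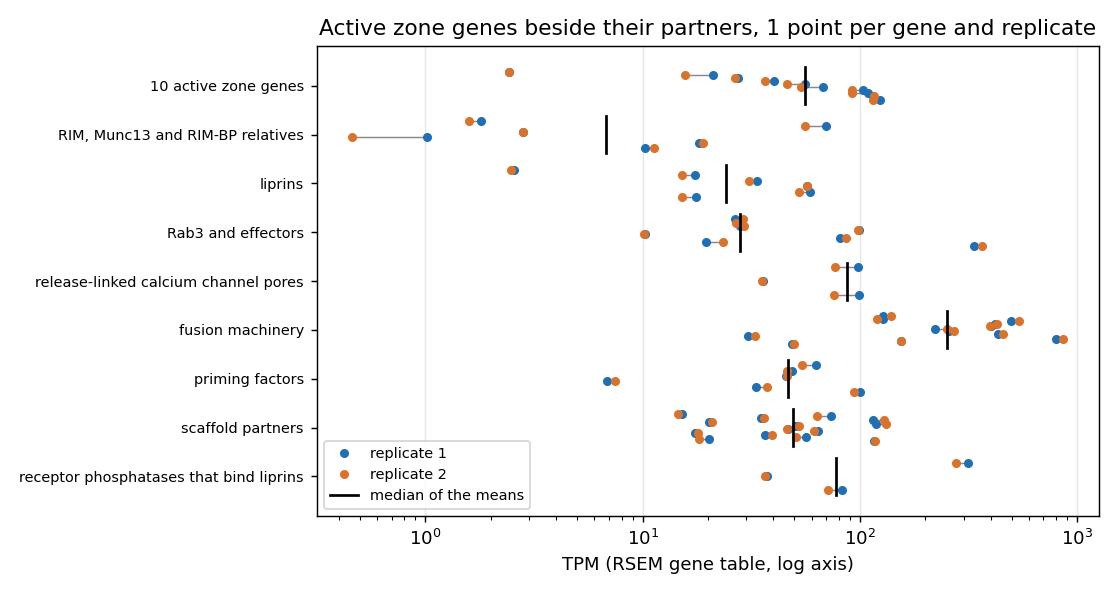
TPM (log axis) of the 10 active zone genes and of 8 lists of partner genes, with 1 point per gene and replicate, grey lines joining the replicates of a gene and black lines at the median of the means. The scaffold genes have a median of 55.8 TPM, and the fusion machinery has the highest median of the lists, 250.7 TPM.

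The tissue label was checked with marker genes. Pan-neuronal markers ranged from 120.5 to 446 TPM, markers of excitatory hippocampal neurons from 47.1 to 1554 and markers of inhibitory neurons from 31.5 to 143. Astrocyte and oligodendrocyte markers were also present, up to 914 and 949.9 TPM, and microglial and endothelial markers reached 35.2 and 22.2, so the levels above are those of mixed tissue. Markers of cerebellar granule cells were all below 1 TPM, at 0 of 3. All 3 markers of thalamus were above 1 TPM, between 5.51 and 12.7. The part of each cell type in the levels of the scaffold genes was not tested.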

How the data were processed

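Total RNA libraries of 2 replicates of hippocampus were analysed. Per the labels, 300 ng of RNA went into each, together with ERCC spike-in RNAs whose profile is meant for stranded libraries depleted of ribosomal RNA. Text notes accompanying the deposited files name mm10 and annotation release M21. They derive the gene table and 1 transcript table from transcriptome alignments, and the other transcript table from reads directly. Column names point to RSEM for the former and to kallisto for the latter. The aligner and all program versions were not given in the sources used here. Per the file headers, the deposited expected counts are estimates that need not be whole, and the deposited TPM divides them by effective length and scales them to 1000000 over all rows.

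Levels are the mean ± SD of deposited TPM. Family ratios were taken within each library. Replicate ratios used expected counts, rounded to integers, after TMM scaling (edgeR 4.0.16 in R 4.3.3, prior count 0.5), on genes with a mean count of at least 100. That step was tested on simulated data. Detection meant a mean TPM of 1 or more. Transcripts were grouped by first and last annotated coding base, and sequences were read from the GENCODE transcripts of the same build. A count of 0 allows up to 3 counts. The spread covers these 2 libraries only.

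The genes and lists were chosen with earlier results of these data known. The text names all 10 genes, their transcripts with at least 5% of a gene where they bear on a form, the 3 highest genes of each partner list, and every gene of a list of 6 or fewer. Marker lists are given as ranges, except the cerebellar one. Alternatives were the kallisto table, other scalings (DESeq2 1.42.0 size factors, spike-ins, TPM), other minimums and each replicate left out. The comparison of retained-intron transcripts was added after seeing the data. Tables were handled in Python 3.11.15 with pandas 2.3.3.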

Additional observations from a re-analysis of the deposited data

How the results depend on the processing

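With 2 libraries, all values are descriptions, and shares of transcripts rest on how each program divided shared reads. No paired analysis was possible because there is 1 group. A comparison of protein features was planned and not run. Each main value was recomputed under several settings: 53 of these recomputed values stayed within the replicate spread or 1.5 times the main count, 21 moved and 0 reversed. Leaving out 1 of 2 replicates always moves a mean by less than its SD. Where the spread was the limit, those settings were thus bound to count as unmoved and say nothing about stability. The median of the 10 genes, 55.8 TPM, was 79.9 in the kallisto table and 118.6 after TPM was rescaled over protein-coding genes, and 49.7 to 61.9 with a replicate left out. The kallisto value of 79.9 was not rescaled, so it does not mean that kallisto placed these genes higher. After both were rescaled over protein-coding genes, kallisto was above RSEM in both replicates for 1 of 10 genes, Rims1. By expected counts, the ratio of Unc13a to Unc13b was 8.30, to Unc13c 32.2, of Rims1 to Rims2 2.72 and of Erc2 to Erc1 2.33. Over protein-coding transcripts these were 8.16, 38.1, 3.27 and 6.07, and adding 1 TPM gave 35.2 for Unc13a to Unc13c. The ratio of Bsn to Pclo stayed between 1.81 and 2.00 over all alternatives. None of the 10 genes passed 2-fold between replicates under any scaling or minimum. Over all genes that count was 99, and 153 with spike-ins, 54 on TPM with 0.5 added, 936 at a minimum count of 10 and 6540 with none. The ratios of Rims1, Rims2, Erc1 and Unc13c turned from above to below 0 with spike-in scaling, and those of Rims2 (-0.12) and Erc1 (-0.05) also on TPM with 0.5 added. The median coding share, 94.3%, was 91.1% in the kallisto table, 97.8% by counts and 93.0% to 95.6% with a replicate left out. Over all detected protein-coding genes, 174 were over 2-fold apart between the tables in both replicates, 79 at a minimum of 10 TPM, 570 over 1.5-fold, and 237 to 253 with a replicate left out. The retained-intron count of 14 was 8 in the kallisto table and 9 at a minimum count of 50, where 11 and 10 transcripts were measured. Partners at the minimum numbered 57, and 57 to 58 with a replicate left out.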
